A study of Mus musculus with 2 samples.

Results

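MicroRNA hairpin loci are the short genes whose transcripts fold back on themselves and are cut into microRNAs. They were taken as the rows of the count table with the transcript biotype miRNA, 1 per Ensembl gene, which gave 2193 loci of 45578 genes. Their lengths ran from 39 to 442 nucleotides, with a median of 90. By the symbols in the table, 1051 loci had a name starting with Mir and 1142 were unnamed gene models. The gene name table held a name for all 2193 identifiers, and under those later names 115 of the unnamed models were Mir genes, 1021 were Gm models, 2 were tRNA genes and 1 was the small nucleolar RNA gene Snord43. The names below are the later ones, so that Mir9-1, unnamed by its symbol in the table, is counted with its family.

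The material was brain from P5 mice of the Taiwanese strain on an FVB background, each Smn+/- (heterozygous for the mouse Smn gene) and SMN2tg/0 (carrying the human SMN2 transgene). These animals are the controls of that spinal muscular atrophy model. Both libraries share the genotype, age and tissue, with 2 biological replicates in 1 group, and no wild-type or affected animal was analysed here. RiboLace captures translating ribosomes on beads carrying a puromycin analogue, and after nuclease digestion the fragments of 25 to 35 nucleotides were kept and sequenced. Gene counts summed to 343552 in replicate 1 and 120282 in replicate 2, and 1 count was worth 2.71 and 8.93 CPM (the count scaled to a common library size) after TMM normalisation. In whole brain, fewer cells of a type and less RNA per cell cannot be told apart.

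A microRNA gene is transcribed as a long primary transcript, often from the intron of another gene or from a non-coding host. The nuclear enzyme Drosha with its partner Dgcr8 cuts out the hairpin, Xpo5 carries it to the cytoplasm, and Dicer1 trims it to a duplex of which 1 strand is loaded into an Argonaute protein. The loaded microRNA finds messenger RNAs mainly through its seed, the bases near its 5′ end, and lowers their translation and stability. In brain, miR-9 and miR-124 are known for their part in neurogenesis and neuronal identity, miR-128 for neuronal excitability, and let-7 and miR-125 for developmental timing.

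The mature microRNAs below belong to the neural families and to the Mir181 family, which followed let-7 and Mir9 in summed counts. They are RefSeq sequences (GRCm38.p6), written 5′ to 3′, and the capitals mark the seed, bases 2 to 8. The sequence table held 1021 of the 1166 loci with Mir names and 298 of the 331 that had a count. Mir124a-1, Mir124a-2 and Mir124a-3 are named only. The first seed is that of the 3 Mir9 loci, on the 5′ arm.
miR-9-5p: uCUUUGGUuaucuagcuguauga
In the sequence table the let-7 seed was carried by 11 loci with a count, including Mir98. Mirlet7a-2, which also had counts, is not among them because the table held only its 3′ arm.
let-7b-5p: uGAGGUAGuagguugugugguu
let-7c-5p: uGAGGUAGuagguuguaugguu
miR-98-5p: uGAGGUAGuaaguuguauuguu
The miR-125 seed was shared by 3 loci.
miR-125a-5p: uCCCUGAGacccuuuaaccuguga
miR-125b-5p: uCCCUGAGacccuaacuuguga
The miR-128 seed lies on the 3′ arm of Mir128-1 and Mir128-2.
miR-128-3p: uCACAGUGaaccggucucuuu
The miR-181 seed was shared by 6 loci.
miR-181a-5p: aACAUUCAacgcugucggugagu
miR-181b-5p: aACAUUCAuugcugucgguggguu
miR-181c-5p: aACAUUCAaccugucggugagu
miR-181d-5p: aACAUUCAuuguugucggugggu

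The 3 Mir9 hairpins are given whole, because they were the loci with the highest summed counts among the neural families and because their sequences bear on how separate those counts are. Capitals mark the 2 mature arms.
Mir9-1, chr3:88215598-88215686, strand +: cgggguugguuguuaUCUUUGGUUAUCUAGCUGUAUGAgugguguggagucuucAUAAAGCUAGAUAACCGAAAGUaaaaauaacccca
Mir9-2, chr13:83738814-83738885, strand +: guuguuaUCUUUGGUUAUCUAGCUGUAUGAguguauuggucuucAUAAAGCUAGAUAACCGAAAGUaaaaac
Mir9-3, chr7:79505264-79505353, strand +: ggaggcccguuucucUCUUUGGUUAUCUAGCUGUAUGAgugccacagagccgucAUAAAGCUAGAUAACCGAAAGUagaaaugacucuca
Mir9-1 and Mir9-2 share an unbroken run of 33 nucleotides, and each shares 26 with Mir9-3. Both runs are within the length of the fragments that were sequenced. The run of 26 is common to all 3 loci, so a fragment of 25 or 26 nucleotides from the 5′ arm can match all 3 without a mismatch. Longer fragments there can match both Mir9-1 and Mir9-2. The 3′ arms hold the same mature sequence in all 3 loci, with a few shared bases beside it. Mir9-3 differs from Mir9-1 and Mir9-2 close to that sequence on both sides. Only the shortest fragments there can match all 3, and longer ones can separate Mir9-3. Among 190 pairs of the 20 tested loci with a hairpin in the table, 4 pairs shared a run of at least 25 nucleotides: these 3 and Mir181a-1 with Mir181a-2, at 28. Mirlet7c-1 and Mirlet7c-2 shared 23. Mirlet7c-1 and Mirlet7c-2 thus share less than the shortest fragment kept. Counts of the loci that share longer runs may not be separate measurements.

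All 2193 loci together held 1015 counts in replicate 1 and 2106 in replicate 2. Their share of the gene counts was 0.295% and 1.75%, or 1.02% ± 1.03 (SD, n = 2), 5.93-fold higher in replicate 2. The deeper library therefore held fewer microRNA counts. Loci with Mir symbols differed 7.53-fold in share (613 and 1617 counts), and unnamed models 3.47-fold (402 and 489 counts). Within the unnamed models, those with later Mir names held 66 and 147 counts, a 6.36-fold difference in share, and the Gm models 303 and 277, a 2.61-fold difference. Other short RNA classes were also higher in share in replicate 2, at 3.02-fold for snRNA, 2.17-fold for snoRNA, 5.53-fold for scaRNA and 7.85-fold for misc_RNA, whereas protein-coding genes stood at 0.898-fold. The part of library composition or size selection in these differences was not tested.

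At least 1 count was found at 468 loci, of which 250 had a count in both libraries, 71 in replicate 1 alone and 147 in replicate 2 alone. The other 1725 loci had no count. Replicate 1 showed 321 loci and replicate 2 showed 397. Thinned to the gene total of replicate 2, replicate 1 would be expected to show 195 loci. A count of 0 allows a share of up to 0.000873% of the gene counts in replicate 1 and 0.00249% in replicate 2. The libraries were amplified by PCR and carry no molecular identifiers, so reads may be copies of 1 molecule and these limits cover counting error only.

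Mir loci with low registration numbers had a count more often than those with high ones. Of 506 Mir loci numbered below 1000, which are mostly the earlier and more conserved entries, 274 (54.1%) had a count, with 524 and 1508 counts in all. Of 649 numbered 1000 or above, 46 (7.09%) had a count, with 80 and 142 counts. All 11 let-7 loci that carry no such number had a count. Hairpins with a count in both libraries had a median GC content of 48.8% (n = 176), those with a count in 1 library 47.6% (n = 103), and those without a count 52.6% (n = 678). Mature microRNAs in the sequence table were 15 to 27 nucleotides long with a median of 22, and 42 of 1738 (2.42%) were 25 or longer. The 42 mature forms of the tested loci were 21 to 24 nucleotides, so none reached the lower edge of the fragments that were kept.

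**Figure D1:**
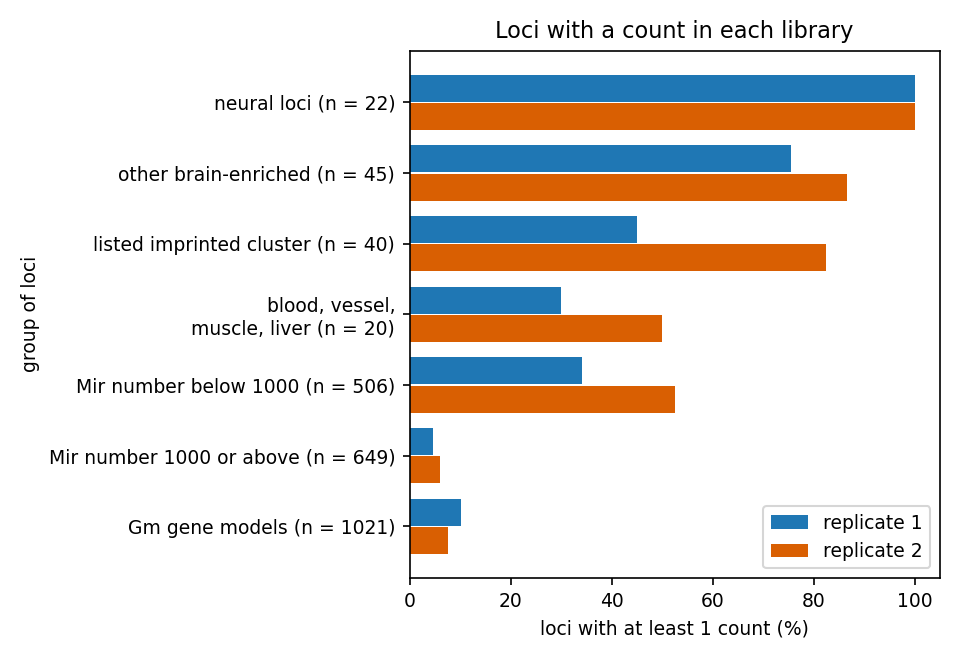
Horizontal bars give the percentage of loci with at least 1 count (x axis) in replicate 1 (blue) and replicate 2 (orange) for groups of loci on the y axis, with the number of loci in brackets. The 22 neural loci had a count in both libraries, whereas Mir loci numbered 1000 or above had one at 4.62% and 6.01%.

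The 5 neural families, 22 loci in all, each had a count in both libraries and together held 162 counts in replicate 1 and 318 in replicate 2, a 5.61-fold difference in share. Ranked by count among the 2193 loci, with ties given the best rank, their median rank was 41.5 in replicate 1 and 36 in replicate 2. Of the 10 loci ranked highest, 4 were neural in replicate 1 and 3 in replicate 2, and 5 of the 10 were shared between the libraries. Of the loci ranked 50 or better, 69 in replicate 1 and 58 in replicate 2 with ties, 14 and 15 were neural, and the 37 that were shared made up 53.6% and 63.8% of the respective lists.

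Summed by family and ranked among 932 families, let-7 came first in both libraries with 75 and 114 counts, Mir9 second with 50 and 95, and Mir181, which is not one of the 5, ranked 3 in both with 41 and 94. The sums cover unequal numbers of loci, 11 for let-7 and 3 for Mir9. Fragments that match several copies of Mir9 or Mir181a may be counted more than once in these sums. Mir125 was rank 5 in replicate 1 and 4 in replicate 2, with 18 and 54 counts. Families were formed by gene name, so Mir7, at rank 4 and 5 with 20 and 37 counts, includes Mir7j (3 and 5). The mature product of Mir7j is named let-7j. The 3 loci with the miR-7 seed alone summed to 17 and 32, below Mir125 in both libraries. Mir124 was rank 13 in replicate 1 and 6 in replicate 2, with 8 and 36 counts. Mir128 was rank 9 and 16, with 11 and 19. The families therefore kept their order at the top and moved below it. Their shares differed between the libraries by 4.34-fold for let-7, 5.43-fold for Mir9, 8.57-fold for Mir125, 12.9-fold for Mir124 and 4.93-fold for Mir128, and differences between families were not tested.

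Mir9-2, whose locus lies in the long non-coding RNA C130071C03Rik, had 19 counts in replicate 1 (rank 1) and 30 in replicate 2 (rank 5). Mir9-1 had 17 and 31 counts (ranks 2 and 4). Mir9-3 had 14 and 34 (ranks 4 and 1). The 3 copies thus stood within 14 to 19 counts in replicate 1 and 30 to 34 in replicate 2, and their order reversed. In CPM, Mir9-2 had 159.7 ± 153, Mir9-1 161.4 ± 163 and Mir9-3 170.8 ± 188 (SD, n = 2 each), where the SD is mostly the difference between the libraries that all 3 copies share. Differences between the copies were not tested.

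Among the let-7 loci, which are read together in developmental timing, Mirlet7b was highest with 14 and 19 counts (ranks 4 and 13). Mirlet7c-1 had 9 and 16 counts, and Mirlet7c-2 11 and 12. The other 8 let-7 loci had 4 to 7 counts in replicate 1 and 5 to 12 in replicate 2, with Mirlet7f-1 and Mirlet7f-2 at 5 in both. These 8 differed by only a few counts and cannot be ordered at this depth.

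Mir125a had 10 and 15 counts, and the 2 genes for miR-125b, which share 1 mature sequence, were lower in replicate 1 and higher in replicate 2: Mir125b-1 had 5 and 20 counts and Mir125b-2 had 3 and 19. Mir125b-1 moved from rank 49 to 11 and Mir125b-2 from rank 98 to 13. The 3 Mir124a loci had 2 to 3 counts in replicate 1 and 11 to 13 in replicate 2, placing them at rank 98 to 139 and then at rank 29 to 47. Mir128-1 had 8 and 11 counts and Mir128-2 3 and 8. All 22 neural loci had a higher CPM in replicate 2.

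**Figure D2:**
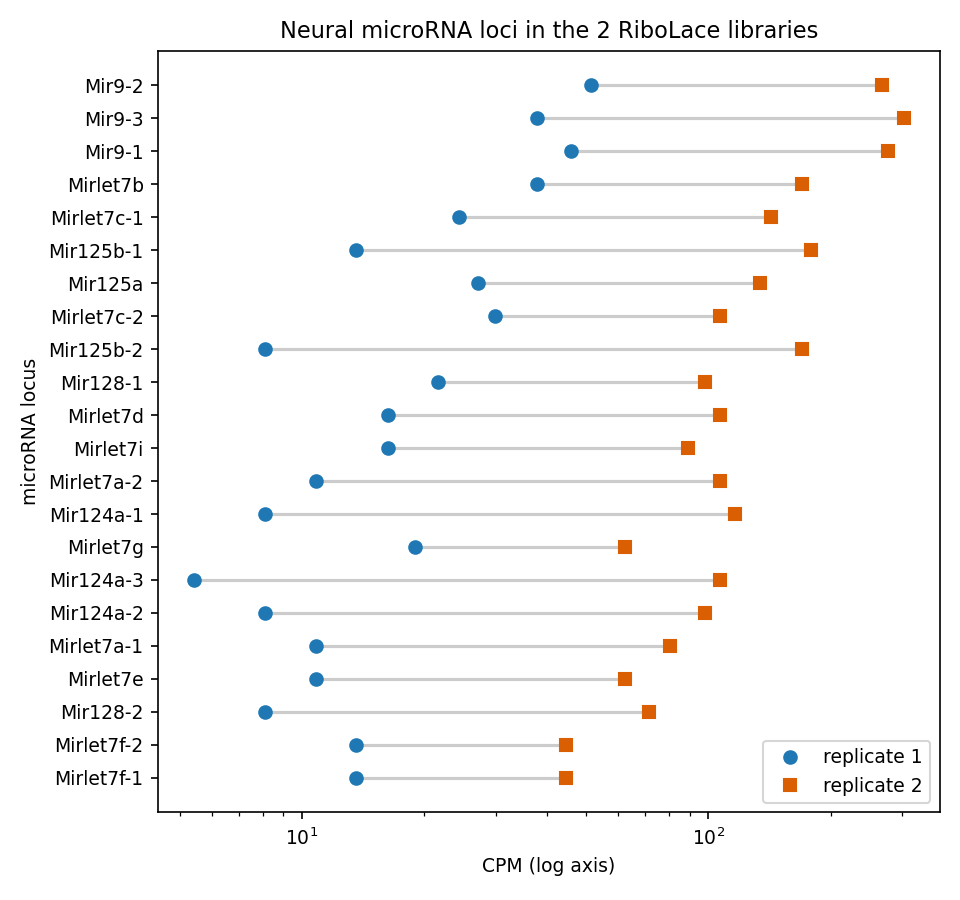
Points give the CPM (x axis, log scale) of each of the 22 neural loci (y axis, ordered by summed count) in replicate 1 (blue circles) and replicate 2 (orange squares), joined by a grey line. Every locus lies to the right in replicate 2, the Mir9 loci at the top and Mir125b-2 and Mir124a-3 with long lines.

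Loci with a mean of at least 10 counts were compared between the libraries with a two-sided exact binomial test over the 5436 genes that passed this filter, with Benjamini-Hochberg adjustment at 0.05. The test compares 2 libraries, not conditions. Only 29 of the 2193 loci passed the filter. Of these, 26 were higher in replicate 2 and 0 lower, where 4.14% of all tested genes passed in either direction and 3.99% were higher in replicate 2. All 29 had an unadjusted p under 0.05, as had 9.6% of all tested genes. Their median log2 ratio of replicate 2 over replicate 1, on log2(CPM + 1), was 2.76, against 0.0041 over all tested genes. Since 20 summed counts at equal CPM would split as about 15.3 in replicate 1 and the rest in replicate 2, low loci could pass mainly through the library in which they were high. In the other short classes 76 of 121 tested snRNA genes, 35 of 81 snoRNA, 8 of 9 misc_RNA and 6 of 8 scaRNA genes also passed, all higher in replicate 2.

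Other settings gave similar counts apart from the filter. With library totals 25 loci passed (3.66% of all tested genes), with DESeq2 size factors 26 (4.12%), with TMM over coding genes 26 (4.27%), and with the edgeR exact test at a preset biological coefficient of variation of 0.2, 21 (2.41%). With at least 1 count in each library as the filter, 87 of 250 loci passed (2.14% of all tested genes).

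Just inside the filter stood Mir181c and Mir181d with 5 and 15 counts and Mir103-2 with 4 and 16, and just outside it Mir7-1 with 6 and 13 and Mir128-1 with 8 and 11. With a filter on replicate 1 alone, at 10 counts or more, 18 loci remained, of which 14 were higher and 4 lower in CPM in replicate 2. The 4 were unnamed models, described with the Gm models below.

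Among the neural loci that passed the filter, the highest log2 ratios belonged to miR-125b. Mir125b-2 and Mir125b-1, with 3 and 5 counts in replicate 1, reached the filter mainly through replicate 2, where they were high. Their place at the top depends on the filter. Below it, Mir124a-3 had a log2 ratio of 4.07 and Mir124a-1 3.68, both above Mir125b-1. Mir125b-2 rose from 8.13 to 169.7 CPM, a log2 ratio of 4.22 (SE 0.90 from counting alone; adjusted p = 4.05e-08, exact binomial test). Mir125b-1 had a log2 ratio of 3.63 (adjusted p = 1.84e-07). Mir9-3 had 2.97 (adjusted p = 3.05e-10), Mir9-1 2.56 (7.53e-08) and Mir9-2 2.36 (8.19e-07) by the same exact test. Mirlet7c-1 had 2.50 (adjusted p = 0.000636), Mir125a 2.26 (0.00304) and Mirlet7b 2.13 (0.00089). Mirlet7c-2 did not pass, with a log2 ratio of 1.81 and an adjusted p of 0.0577. Of the 9 tested neural loci, 8 passed (88.9%), close to the 26 of 29 (89.7%) among all tested microRNA loci.

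Beyond the neural families, the 6 loci of the Mir181 family, a seed group known from brain and lymphocytes, had 3 to 10 counts in replicate 1 and 13 to 19 in replicate 2. Of the other brain-enriched loci on the list, 39 of 45 had a count, summing to 126 and 333. The list took loci by name and so includes Mir7j (3 and 5 counts), whose mature product is named let-7j. The 6 of these that were tested all passed, where 89.7% of all tested microRNA loci did. They were Mir181a-1, Mir181a-2, Mir181b-2, Mir181c, Mir181d and Mir137. Mir137, a regulator of neuronal maturation, had 10 and 12 counts and the lowest log2 ratio of the loci that passed, 1.94 (adjusted p = 0.0374, exact binomial test). Mir132, which is induced by neuronal activity, had 0 and 8 counts, and its neighbour Mir212 0 and 3. Mir338, an oligodendrocyte microRNA, had 6 and 11. Mir219a-2, another of that lineage, had 3 and 5.

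Mir5099 (17 and 15 counts, log2 ratio 1.52, adjusted p = 0.0707) and Gm24187 (13 and 10, log2 ratio 1.32, adjusted p = 0.475) were the other tested loci that did not pass the exact binomial test. Mir5099 was the 1 tested locus numbered 1000 or above. Mir136 had 8 and 20 counts (log2 ratio 2.99), and Mir300 5 and 18 (3.47). Both lie in the imprinted Dlk1-Dio3 region. Mir103-2 had 4 and 16 counts (log2 ratio 3.60), and Mir135a-2 7 and 15 (2.76).

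**Figure D3:**
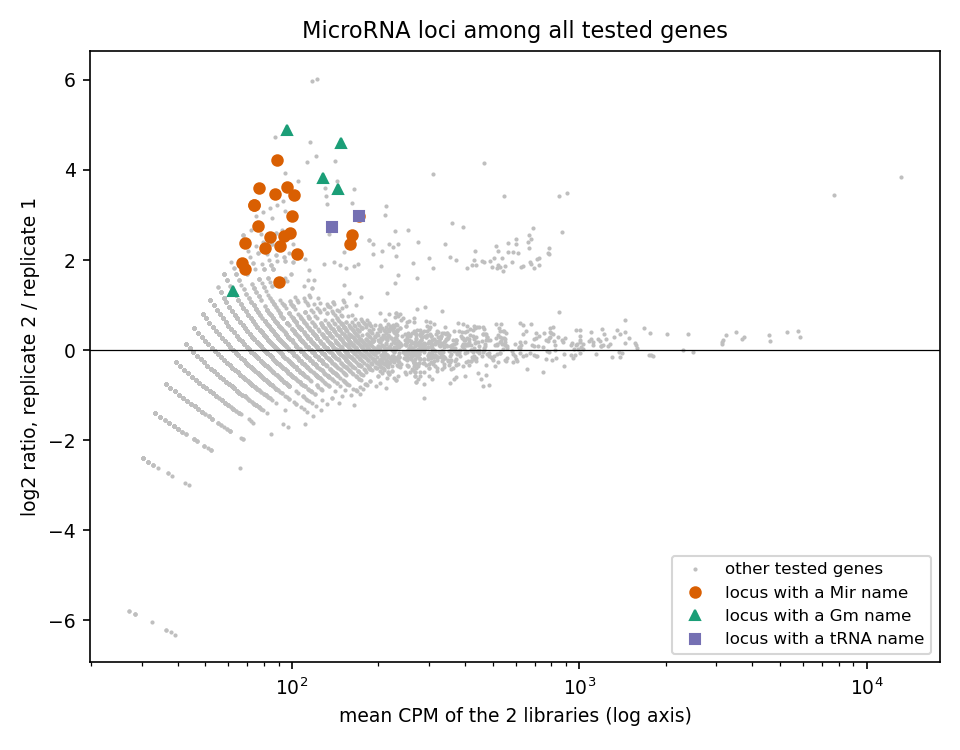
Each point is a gene tested in both libraries, with mean CPM on the x axis (log scale) and the log2 ratio of replicate 2 over replicate 1 on the y axis. Grey points are other genes, circles are loci with Mir names, triangles with Gm names and squares with tRNA names. The 29 loci lie above 0, from 1.32 to 4.88, at low mean CPM, among other genes of similar ratio, and loci with equal counts (Mir9-3 and n-TStga1, Mir181c and Mir181d) cover each other.

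The order of loci was only partly kept between the libraries, with 5 of the 10 highest ranked loci shared. Across the 468 loci with a count, the Spearman correlation of counts was 0.463, and across the 29 tested loci 0.081. Both describe loci that share the 2 libraries and, within families, sequence. Both sets were also picked by their summed count, which by itself lowers such a correlation. The value over the 29 loci therefore does not show how far the order was kept.

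Of the 1164 Mir loci that could be placed with RefSeq gene neighbours, 356 lay in 91 groups of 2 or more loci separated by at most 10 kb, and 175 of them had a count. Of the 808 single loci, 156 had one. The largest group, 63 loci from Mir466m to Mir669h on chromosome 2, had a count at 11 loci, with 1 and 15 counts. All 11 lie within Sfmbt2, and most belong to the Mir466, Mir467 and Mir669 families. The 39 loci from Mir379 to Mir3072 on chromosome 12 had a count at 29, with 27 and 126 counts. The adjoining 16 loci from Mir770 to Mir136 had 8, with 21 and 49.

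These 2 groups belong to the imprinted Dlk1-Dio3 region, whose microRNAs are transcribed from the maternal copy. The 40 loci listed for it had a count at 34, with 47 and 165 counts, a 10-fold difference in share. In replicate 1 18 of the 40 had a count and in replicate 2 33. Mir136, Mir300, Mir433 (7 and 10) and Mir382 (5 and 11) were highest. Mir487b had 0 and 10 counts and Mir376b 0 and 8. Several loci overlap the coding gene Rtl1, among them Mir136, Mir433 and Mir127, or the non-coding genes Mirg and Rian.

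Of the other groups, the 6 loci of the Mir17 to Mir92-1 cluster on chromosome 14, a proliferation-linked cluster, all had a count, with 16 and 42 in all. Its X-linked counterpart Mir363 to Mir106a also had a count at 6 of 6, with 4 and 15. The Mir25 to Mir106b group, inside Mcm7, had 9 and 22. The Mir743 to Mir465 group on X, 19 loci known mainly from testis, had no count. The embryonic stem cell clusters stood near 0: Mir290a to Mir295 had 1 and 0 counts over 9 loci, and Mir302b to Mir367 0 and 2 over 5.

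MicroRNAs that mark other cell types of the tissue were present at low counts. Of the 20 blood, endothelial, muscle and liver loci on the list, 11 had a count, summing to 11 and 36. Mir126a, an endothelial microRNA, had 4 and 11 counts. Mir451a, an erythrocyte microRNA, had 2 and 11. Mir142, of blood cells, had 2 and 2, and Mir150, Mir144 and Mir223 1 or 2 counts in replicate 2 alone. Mir122 of liver, Mir208a and Mir208b of heart, Mir192, Mir194-1, Mir194-2, Mir133b, Mir126b and Mir155 were at 0 in both libraries. Their part in the differences was not tested.

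Among detected loci that could be placed, 230 of 331 lay within the span of another gene, on either strand, 162 within a protein-coding gene and 81 within a long non-coding one. Some non-coding hosts had counts close to those of their hairpins and others did not. C130071C03Rik had 26 and 35 counts beside 19 and 30 for Mir9-2, and passed the same test (log2 ratio 2.13, adjusted p = 5.96e-07, exact binomial test). Mir17hg, the host of the Mir17 cluster, had 15 and 43 beside a sum of 16 and 42 over its 6 loci (log2 ratio 3.21, adjusted p = 4.27e-14, exact test). Mir124a-1hg had 1 and 13 beside 3 and 13 for Mir124a-1. By contrast, Dleu2 had 1 and 0 counts beside 6 and 12 for Mir16-1 and 4 and 10 for Mir15a. Meg3 had 25 and 18 beside 3 and 3 for Mir770, and Rian 20 and 4 beside 3 and 1 for Mir370. Meg3 did not pass the test (log2 ratio 1.23, adjusted p = 0.131, exact binomial test).

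In 2 coding genes a single isoform had counts close to those of the hairpins. In Mcm7, the helicase subunit gene, a retained-intron isoform of 986 nucleotides had 10 and 16 counts, beside 9 and 22 for Mir25, Mir93 and Mir106b (log2 ratio 2.36, adjusted p = 0.0012, exact binomial test), while the first coding isoform had 12 and 5. In Egfl7, the endothelial gene that holds Mir126a, a retained-intron isoform had 5 and 12 counts beside 4 and 11 for the hairpin. The rule for fragments that match several transcripts is not given in the sources used here, so whether host and hairpin counts such as these hold the same fragments was not tested. This comparison of isoforms was chosen after the values were seen.

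Several hosts represented by a messenger RNA had a log2 ratio below 0 while their hairpins were above it. Mest had 49 and 12 counts (log2 ratio -0.31, adjusted p = 1, exact binomial test), and Mir335 in it 11 and 17 (log2 ratio 2.31). Evl, an actin regulator, had 41 and 8 (log2 ratio -0.63), and Mir342 6 and 21 (3.45). Huwe1, a ubiquitin ligase, had 74 and 13 (log2 ratio -0.78), and Mirlet7f-2 with Mir98 7 and 7 in sum (1.67). Mest, Evl and Huwe1 were tested and did not pass. R3hdm1 had 14 and 4 counts, below the filter, and Mir128-1 8 and 11. Other coding hosts had a log2 ratio above 0, though lower than that of the hairpin: Pank3 had 0.36 (23 and 9 counts) beside 3.51 for Mir103-1, and Arpp21 0.29 (8 and 3) beside 2.99 for Mir128-2. Srebf2, with 109 and 23 counts, holds Mir33, which was at 0 in both libraries. On the host list, 39 of 40 genes were matched and 18 tested. Of these, C130071C03Rik, Mir17hg and Mcm7, the last by its retained-intron isoform, passed, all higher in replicate 2. Over all tested genes 4.14% passed, and 3.99% were higher in replicate 2.

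**Figure D4:**
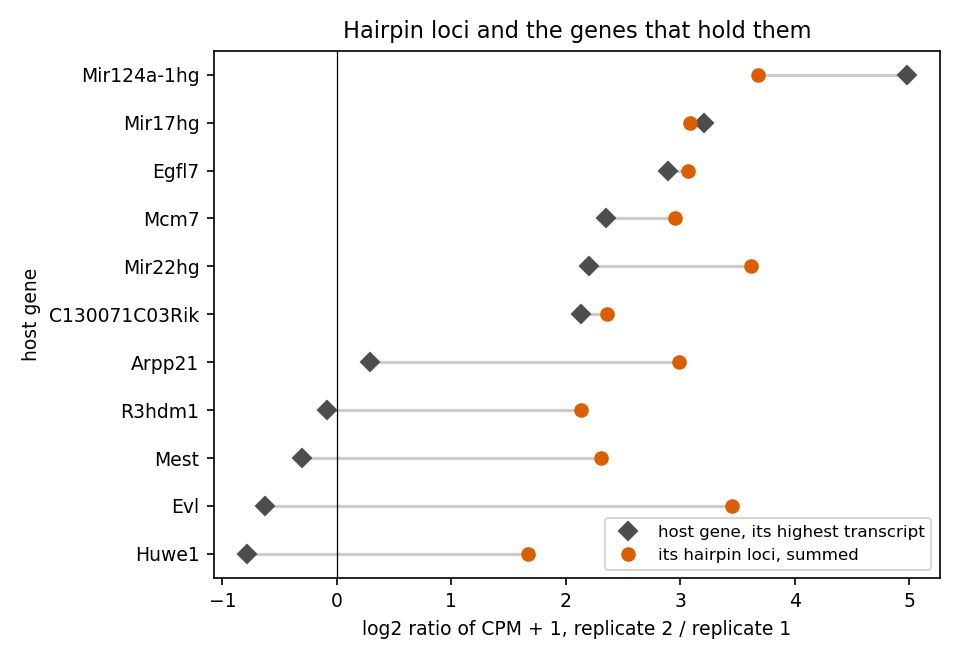
Points give the log2 ratio of CPM + 1, replicate 2 over replicate 1 (x axis), of each host gene (dark diamonds, its transcript with the highest count) and of the summed hairpin loci it holds (orange circles), with host genes on the y axis. The coding hosts Mest, Evl, Huwe1, R3hdm1 and Arpp21 lie at -0.78 to 0.29 while their loci lie at 1.67 to 3.45, and the 6 plotted hosts represented by a non-coding transcript lie at 2.13 or above. Listed non-coding hosts that are not plotted had 2.58 (Mirg), 1.23 (Meg3), -0.59 (Rian), -1.89 (Dleu2) and -2.68 (Mir99ahg). Coding hosts that are not plotted include Smc4 at 2.32 and Pank3 at 0.36.

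Of 34 listed genes for microRNA biogenesis and silencing, 31 had a count and 19 were tested. In the exact binomial test 0 of the 19 passed, with 0 at an unadjusted p under 0.05. Among all 4392 tested protein-coding genes 42 passed (0.956%), and 247 had an unadjusted p under 0.05. A list of 19 coding genes with 0 passing is therefore near the general share. Their summed counts were 1107 and 326, their log2 ratios ran from -1.36 to 0.54 and the median was 0.10. Ddx5, a helicase that works with Drosha, had 200 and 65 counts, and its paralog Ddx17 87 and 30. Hnrnpa1, an RNA-binding protein, had 131 and 36, and Ran, the GTPase that Xpo5 works with, 101 and 20. Khsrp, a binding protein of let-7 precursors, had 73 and 24. Ddx6, a silencing helicase, had 62 and 22, Xrn2, an exonuclease, 56 and 11, and the splicing factor Srsf3 48 and 15. Of the core enzymes, Drosha had 26 and 3 counts, Dgcr8 7 and 1, Xpo5 27 and 9, Dicer1 16 and 6 and Ago2 23 and 10. Lin28a, Lin28b and Trim71, which hold let-7 down in early development, were at 0 in both libraries.

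Some of the loci with the biotype miRNA were not microRNA genes by name. The 2 loci with tRNA names, n-TStga1 with 14 and 34 counts (log2 ratio 2.97) and n-TSaga9 with 13 and 27 (2.74), both passed. Among Gm models, Gm44456 had 2 and 21 counts and the highest log2 ratio of all tested loci, 4.88 (adjusted p = 5.46e-10, exact binomial test). Gm47304 had 4 and 32 counts (log2 ratio 4.60, adjusted p = 1.49e-14, exact test), Gm47305 6 and 27 (3.81) and Gm47287 8 and 30 (3.57). These Gm models had few counts in replicate 1 and reached the filter mainly through replicate 2, where they were high. The place of Gm44456 at the top depends on the filter. Below it, Mir132, with 0 and 8 counts, had a log2 ratio of 6.18. Gm47304, Gm47305 and Gm47287 are models of 70 nucleotides. Of the 18 models of that length, 6 had a count, summing to 25 and 91, with 4 higher and 2 lower in replicate 2 after scaling.

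Another set of Gm models had a similar share in both libraries. Of 17 models of 84 nucleotides, 7 had a count, summing to 59 and 19, or 0.0172% and 0.0158% of the gene counts. Of these 7, 3 were higher and 4 lower in replicate 2 after scaling. Gm23374 had 14 and 4 counts (log2 ratio -0.08), Gm23419 12 and 3, and Gm23812 10 and 1. Gm25032 and Gm22801 had 8 and 4 counts each and were among those higher in replicate 2. None of these named models reached the filter. Gm23374, Gm23419, Gm23812 and Gm47308, the last of 107 nucleotides with 10 and 0 counts, were the 4 loci lower in replicate 2 when the filter used replicate 1 alone. These length groups were chosen after the values were seen, and the models are given by name because the sequence table used here was matched by microRNA name.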

How the data were processed

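RiboLace footprints of 2 P5 brain replicates of 1 group were analysed. The authors deposited 1 table of whole-number counts per transcript, not normalised. The submitters' processing notes name Trimmomatic 0.36, Bowtie2 2.2.6, SAMtools and the build GRCm38.p4. The counting tool, annotation release and rule for fragments with several matches are not given in the sources used here. Since a fragment may have been counted for several isoforms, the isoform with the highest summed count, the longer in a tie, stood for each gene. Members, lists and alternatives were chosen with earlier results of these data known.

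CPM used TMM factors from edgeR 4.0.16 (R 4.3.3) from genes averaging 10 counts or more, with 1 CPM added for log2 ratios. Libraries were compared gene by gene with a two-sided exact binomial test (SciPy 1.17.1) and Benjamini-Hochberg adjustment over all 5436 genes tested. The test was checked on simulated data that held counting error only. That check does not cover variation between animals or PCR copies. The replicates are labelled biological, so p-values measure how far 2 libraries differ beyond counting error only, and standard errors cover counting error. Depth, at 343552 and 120282 gene counts, limits single loci to 34 counts at most.

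Loci were named by rule: all loci of the 5 neural families, the 10 Mir loci and 5 unnamed models with the highest summed counts, the 5 highest and 5 lowest log2 ratios among tested loci, and the 8 biogenesis genes with the highest counts. Other loci named were chosen after their values were seen. Alternatives were library totals, DESeq2 1.42.0 size factors, TMM over coding genes, no mean filter, a preset biological variation in edgeR, summed isoforms and other definitions of the loci. RefSeq sequences and neighbours come from GRCm38.p6 tables.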

Additional observations from a re-analysis of the deposited data

How the results depend on the processing

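With 2 libraries of 1 group, the exact binomial test covers counting error alone. The 26 loci that passed were 25 with library totals, 26 with DESeq2 size factors, 26 with TMM over coding genes, 24 with equal count pairs counted once, 24 without tRNA and small nucleolar RNA names, and 21 in the edgeR exact test with a preset biological coefficient of variation of 0.2. With at least 1 count in each library as the filter, 87 passed, with 2.14% of all tested genes. No locus had a mean of 50 counts, so that filter gave no value. The fold difference of shares, 5.93, was 6.72 with isoforms summed, 6.60 relative to coding counts, 7.53 for Mir symbols and 7.42 for later Mir names. The share ranged from 0.295% to 1.75%, and loci with a count from 321 to 397, when 1 replicate was left out. With at least 3 counts, 276 loci remained of 468. The median neural rank of 41.5 in replicate 1 was 50 per length and 5 with families summed, and that of 36 in replicate 2 was 43 and 4. With the preset variation, Mir335 (adjusted p = 0.081, edgeR), Mir125a (0.084), Mirlet7b (0.060) and Mir137 (0.63) no longer passed, and Mir137 also missed with library totals (0.115) and without the mean filter (0.066). Library totals moved the median log2 ratio over the whole table to -0.20. Among the 22 named loci refitted under these settings, no log2 ratio changed sign. Beyond the constructions named, the cause was not tested. No paired analysis was possible because both libraries belong to 1 group.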

Other observations

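Several seed groups outside the neural families were carried by many loci at low counts. The 7 loci with the miR-15 and miR-16 seed (Mir15a, Mir15b, Mir16-1, Mir16-2, Mir195a, Mir322 and Mir497), a group known for cell cycle targets, summed to 16 and 60 counts. The 6 with the miR-17 seed summed to 16 and 43, and the 6 with the miR-92 seed to 9 and 17. The 4 Mir29 loci, whose targets include collagens and DNA methyltransferases, summed to 7 and 26. In all, 410 seeds were carried by loci with a count, and 24 of them by 3 or more loci.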
